A study of Eutrema with 12 samples.

Results

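Of 4042 cDNA clones spotted on the Thellungiella array under the name prefixes cld, drt, drtg, slt and sltg, 82 were higher in cauline leaves of Yukon field plants than in leaves of cabinet plants in both 2003 and 2005. They were chosen by the measured ratios themselves: the log2 ratio of field over cabinet, centred on the median of each array, had to average at least 1 (a doubling) over the 3 plants of each year and to lie above 0 in all 6 plants. That ratio is therefore given as a description and was not tested. The array carries 4279 cDNA identifiers in all, and the same rule with its signs turned found 122 clones that were lower in the field in both years.

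Each of 3 field plants of 2003 (A, B and C) and 3 of 2005 (A, B and C) was a single plant of the Yukon ecotype of Thellungiella salsuginea, collected at its natural site and exposed to whatever conditions prevailed there. Each was hybridized against cauline leaf RNA of untreated Yukon plants that were 12 weeks old and had been kept in cabinets with a day of 21 h and temperatures of 22°C by day and 10°C by night. Every plant had 2 arrays, with Cy3 and Cy5 exchanged on the second, so that there were 12 arrays. By the sample records, field mRNA was amplified before labelling and cabinet mRNA was not, while the study's methods mention amplification without setting the cabinet RNA apart. If the records hold, growth site and amplification cannot be told apart in any ratio of field over cabinet. The sources used here do not give the age of the field plants or say whether 1 cabinet RNA served several arrays. The letter of the third plant of 2005 is C in its sample titles, while the series' design text has D.

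Thellungiella is a relative of Arabidopsis that is known for growing in saline, cold and dry places, where several stresses act at once. Plants under such stresses are known to accumulate transcripts for protective proteins, for the synthesis of compatible solutes and for signalling through abscisic acid (ABA), and the libraries behind the array had been enriched for cDNAs that respond to stress. Cauline leaves are the leaves borne on the flowering stem. No file used here ties a clone name to a gene, so the clones are given by their array names, without a gene, a sequence or a function, and the sources used here do not spell out the prefixes. For the same reason the labelled tissue was not checked against marker genes. In whole leaves, a change in the share of cells of a type and a change in the RNA of each cell cannot be told apart.

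The prefixes contributed unequally. Prefix cld gave 43 of its 1974 clones (2.18%), drt 16 of 793 (2.02%), drtg 16 of 477 (3.35%), slt 6 of 653 (0.919%) and sltg 1 of 145 (0.69%). The share over all 5 prefixes was 2.03%. The clones that were lower in both years had another distribution, with 3.09% of cld, 3.03% of drt, 2.52% of drtg, 2.91% of slt and 4.14% of sltg. Thus drtg was the prefix with the largest share among the higher clones and the smallest among the lower clones. These shares are a description, because the choice of members fixed them. The 82 clones came from 41 of 65 source plates, as read from the first part of the clone name, and the plates with the most were drt13, with 5 of 48 clones, and drtg3, with 5 of 79. On the glass they lay in 39 of the 48 spotting blocks, with at most 5 in a block.

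**Figure D1:**
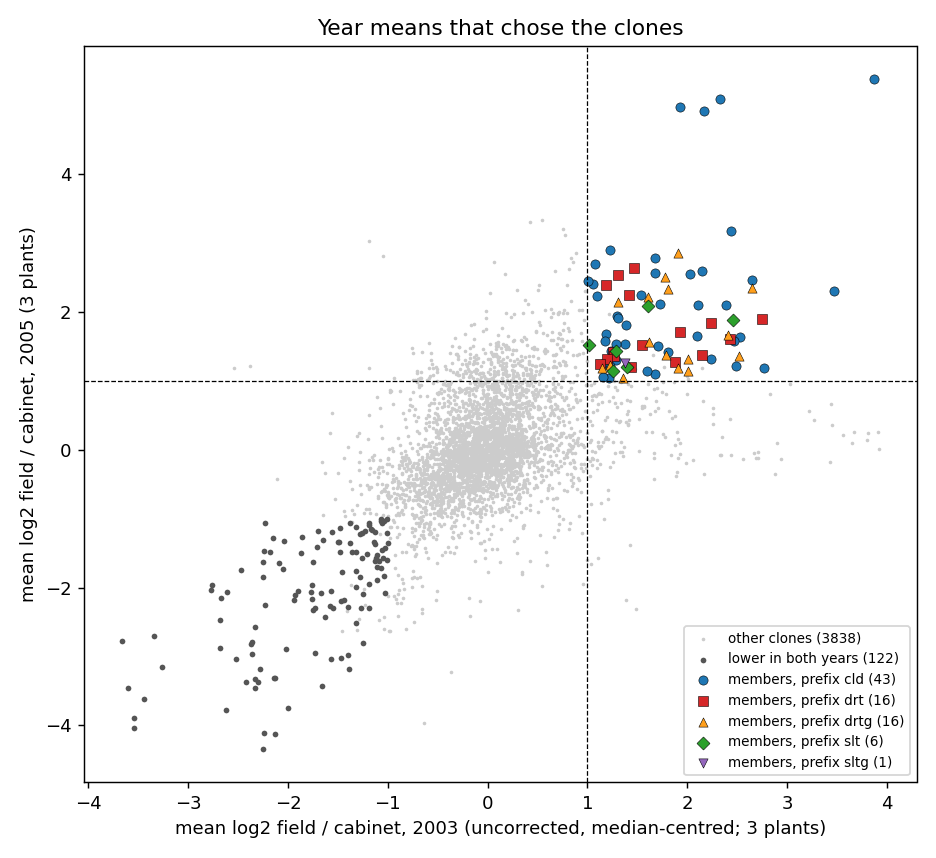
Mean log2 ratio of field over cabinet in 2003 (horizontal axis) and in 2005 (vertical axis) for each of the 4042 clones, 3 plants a year, on the uncorrected and median-centred scale of the rule. Dashed lines mark the limit of 1, coloured symbols the 82 members by prefix and dark points the 122 clones lower in both years; 4 cld members stand above 4 in 2005.

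The plot of year means shows many members near the limit and a small group of cld clones far above it. The members just inside were cld4_d05, with a 2003 mean of 1.0016, and slt5_d12, with a 2003 mean of 1.0168. The clones just outside, slt11_g10 and drt10_d03, had 2003 means of 0.997 and 0.9964 and 2005 means of 1.495 and 1.28. Membership at this edge is decided by differences far below the spread between plants, since cld4_d05 itself ranged from 0.46 to 1.54 over the plants of 2003. The member cld25_c05 passed the condition on single plants with a value of 0.00 in plant 2003 B.

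The values that follow are on a normalized scale, the log2 ratio after background correction and loess normalization of each array, on which 1 again means a doubling. On it all 82 members lay above 0 on each of the 12 arrays, the lowest value being 0.02. The rule, applied to the same arrays, made this likely beforehand. No filter on low values was applied, so none of the members was lost to one. The median over the members was 1.84 in 2003 (a 3.57-fold ratio) and 1.74 in 2005 (3.35-fold), beside -0.01 and -0.04 over all 4042 clones. Between the quartiles the members ranged from 1.46 to 2.52 in 2003 and from 1.39 to 2.26 in 2005. A ratio of at least 2 on the log2 scale, 4-fold, was reached by 35 members in 2003, by 34 in 2005 and by 14 in both. All 6 plants were at or above 1 in 39 members and at or above 2 in 4, which were cld8_b02, cld25_f09, cld15_e08 and cld25_f07. At the other end, 4 members averaged under 1 in 2005 after normalization.

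**Figure D2:**
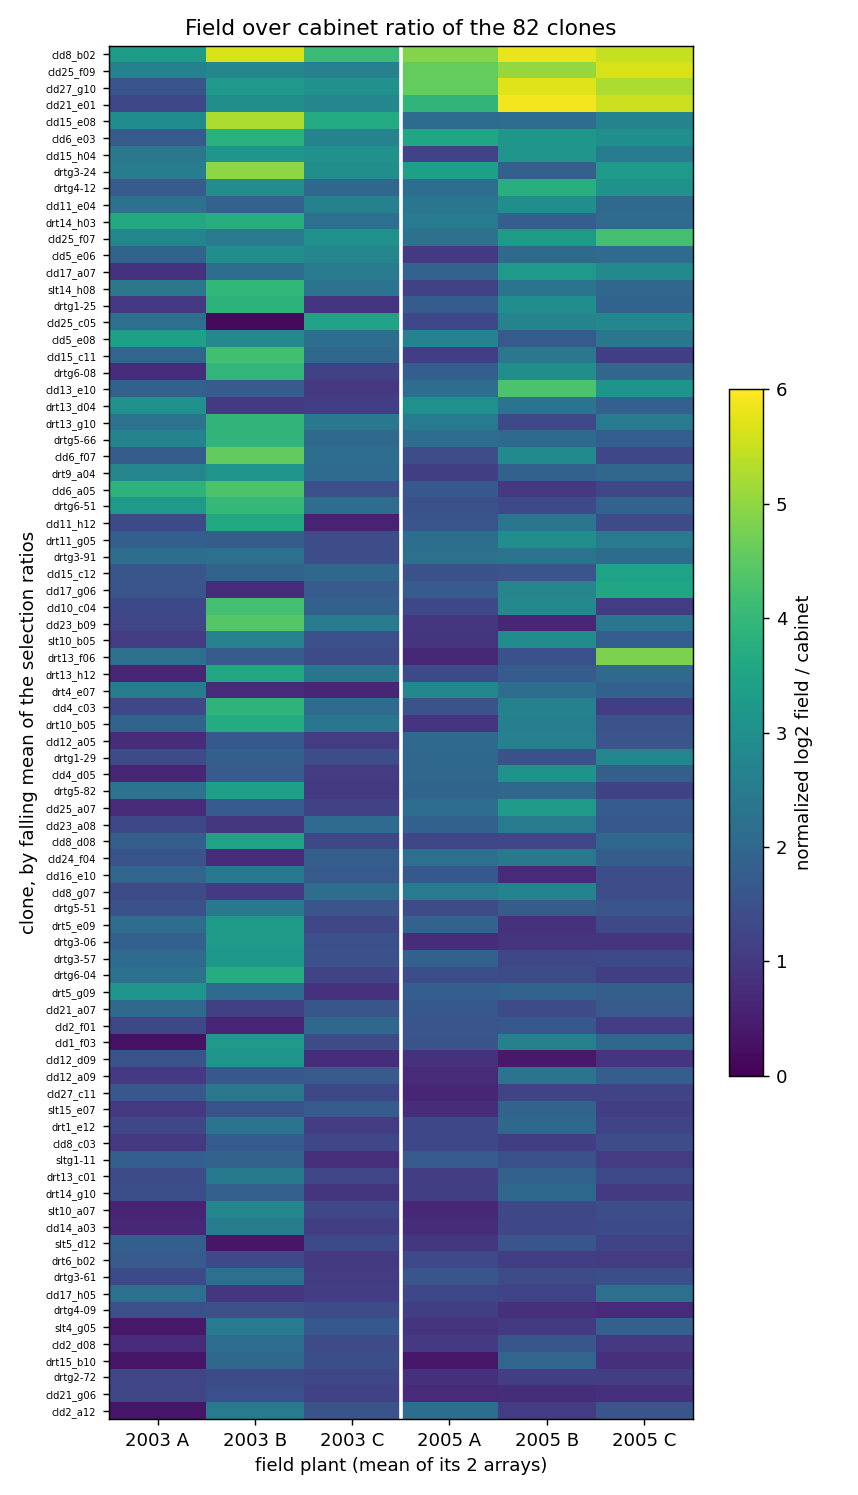
Normalized log2 ratio of field over cabinet (colour, from 0 to 6) of the 82 clones (rows, ordered by the mean of the year means of the selection ratio) in the 6 field plants (columns, each the mean of 2 arrays). The 4 top rows are the brightest in 2005, and the column of plant 2003 B holds the highest value of 47 rows.

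The highest clone was cld8_b02. Its log2 ratio was 3.28, 5.63 and 4.08 in plants A, B and C of 2003 and 4.90, 5.82 and 5.47 in those of 2005. The year means of 4.33 ± 1.2 (SD, n = 3) and 5.40 ± 0.466 (SD, n = 3) are ratios of 20.1-fold and 42.1-fold. The years overlapped, since plant B of 2003 was above plants A and C of 2005. In cabinet leaves its spots were 10.3 times as bright as their local background and in field leaves 183 times, and 3 of its field readings lay at the maximum of the scanner, so its ratio may be understated.

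The next clones, cld25_f09, cld27_g10 and cld21_e01, shared one pattern, with values in 2005 that were far above those of 2003. For cld25_f09 the values were 2.63, 2.78 and 2.62 in 2003 and 4.58, 5.06 and 5.64 in 2005. For cld27_g10 they were 1.58, 3.21 and 3.03 in 2003 and 4.58, 5.72 and 5.27 in 2005. For cld21_e01 they were 1.30, 2.97 and 2.77 in 2003 and 3.93, 5.89 and 5.52 in 2005. In all 3 clones every plant of 2005 lay above every plant of 2003. The ratios were 6.39-, 6.1- and 5.08-fold in 2003 and 34.1-, 36.5- and 34.6-fold in 2005. Plant A was the lowest of 2005 in each of them, and in cld27_g10 and cld21_e01 it was also clearly the lowest of 2003, whereas the plants of 2003 differed little in cld25_f09 (SD 0.0891, n = 3).

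The remaining clones of the highest 6 had other patterns. Clone cld15_e08 had values of 2.91, 5.27 and 3.66 in 2003 and of 2.12, 2.15 and 2.69 in 2005, so that all plants of 2003 lay above those of 2005. Clone cld6_e03 had values of 1.69, 3.81 and 2.69 in 2003 and of 3.54, 3.17 and 2.98 in 2005, and its plants overlapped between the years. The spread of both clones was wider in 2003, with an SD of 1.2 against 0.318 for cld15_e08 and of 1.06 against 0.286 for cld6_e03 (n = 3 each).

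The 6 slt members and the single sltg member were among the moderate ones. The sltg member, sltg1-11, had values of 1.78, 1.92 and 0.82 in 2003 and of 1.70, 1.51 and 1.03 in 2005, with plant C the lowest in both years. The highest slt member was slt14_h08, with 2.37, 3.97 and 2.29 in 2003 and 1.17, 2.34 and 1.97 in 2005. Plant B led in both years there, as it did in slt10_b05, whose values were 1.04, 2.67 and 1.46 in 2003 and 0.93, 2.90 and 1.79 in 2005. Members slt10_a07 and slt4_g05 were led by plant 2003 B as well, at 2.75 and 2.501, over 0.60 and 0.41 in plant 2003 A. In slt15_e07 the values were 1.01, 1.55 and 1.74 in 2003 and 0.76, 1.91 and 1.12 in 2005. In slt5_d12, by contrast, plant B was the lowest of 2003, at 0.36 against 1.80 and 1.35, and the highest of 2005, at 1.59 against 0.98 and 1.24.

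Single plants accounted for much of the variation among members. Plant 2003 B was the highest of the 6 plants in 47 of the 82 members (57.3%), while it was so in 24% of all 4042 clones. Plant 2005 B was the highest in 19 members, and plants A and C of 2003 and A and C of 2005 in 6, 2, 1 and 7. The median over the members was 2.49 in plant 2003 B, beside 1.66 and 1.52 in plants A and C of that year and 1.59, 1.97 and 1.79 in A, B and C of 2005. The letters mark plants and not a treatment, and B led within its year in 59 members in 2003, in 39 in 2005 and in 27 in both. It led 2003 in 37.3% of all 4042 clones, and the shares over all clones for 2005 and for both years were not counted. The ratios of all 4042 clones were also the most widely spread in the B plants, with an interquartile range of 1.10 in 2003 B and 1.08 in 2005 B, and of 0.697 to 0.89 in the other 4 plants. Among the 122 lower clones plant B was the lowest of 2003 in 86 (70.5%), as it was the highest of 2003 in 72.0% of the members. The part of this wider spread in the members' values was not tested. Without plant 2003 B the median of the members in 2003 was 1.66.

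Spread within a year was larger in 2003 than in 2005 for 58 of the 82 members (70.7%), and the same held for 70.5% of all clones. The median SD over the members was 0.782 in 2003 and 0.502 in 2005, beside 0.371 and 0.236 over all 4042 clones. The most uniform members were cld21_g06 and drtg2-72. Clone cld21_g06 had values of 1.26, 1.46 and 1.18 in 2003 and of 0.75, 0.78 and 0.82 in 2005. Clone drtg2-72, which had 6 spots on each array rather than 3, had values of 1.25, 1.39 and 1.27 in 2003 and of 0.82, 1.08 and 1.10 in 2005. These are small but even ratios. The least uniform members were drt13_f06 and cld25_c05. Clone drt13_f06 was at 4.82 in plant 2005 C, while its other 5 plants ranged from 0.67 to 2.22. Clone cld25_c05 had values of 2.21, 0.16 and 3.46 in 2003, with plants B and C far apart on either side, and of 1.31, 2.68 and 2.79 in 2005. The spots of a member differed far less than its plants, with a median SD between spots of one array of 0.0703. In 80 members, however, all spots of a clone lie in the same row of 1 spotting block, so that they share their place on the glass.

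**Figure D3:**
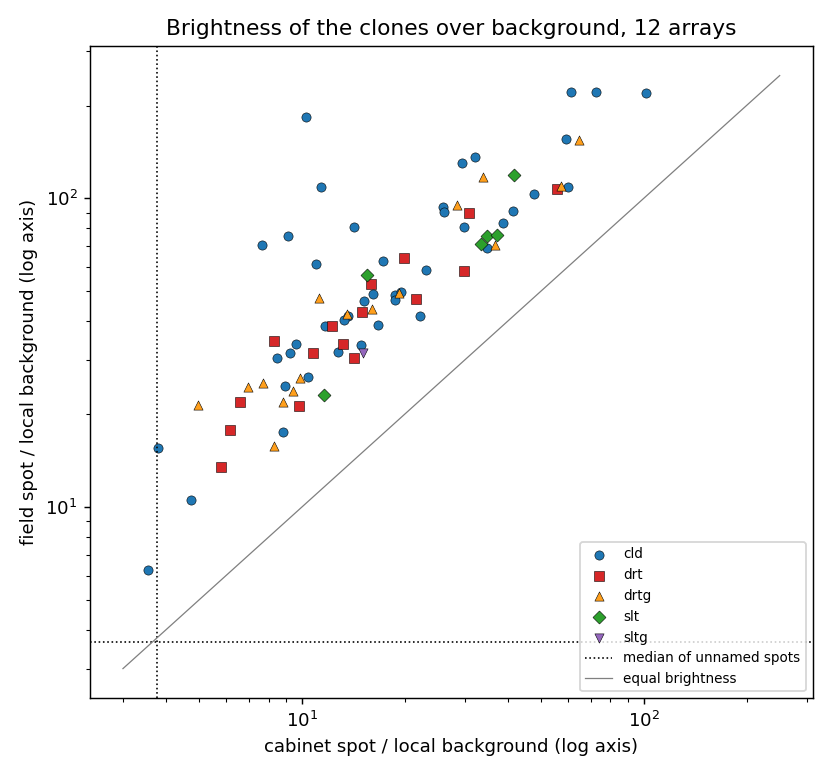
Brightness of the spots of each member over their local background in the field channel (vertical, log axis) and the cabinet channel (horizontal, log axis), as geometric means over the 12 arrays. Dotted lines mark the median of 87 unnamed spots; all 82 members lie above the line of equal brightness, and cld2_a12 lies to the left of the dotted vertical line.

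With 1 exception the members were brighter than the median unnamed spot in the cabinet channel, while 138 of all 4042 clones (3.41%) were not. Their spots were 15.2 times as bright as the local background in the cabinet channel (median), against 20.6 over all 4042 clones, and 48.2 times in the field channel, against 18.2. Spots that carry no name and are of unstated content reached 3.76 times (cabinet) and 3.66 times (field) the brightness around them. In the plot of brightness, cld2_a12, named here because it was the only one, was no brighter than that in the cabinet channel (3.56 times) and was 6.27 times as bright as background in the field channel. Its ratio is hence uncertain, with values of 0.33, 2.49 and 1.54 in 2003 and of 2.16, 1.07 and 1.59 in 2005. Clone cld25_f07, with at least 2 in every plant, was barely above that median in the cabinet channel (3.80 times), which makes its ratio uncertain too. At the bright end, 30 readings in 9 members lay at the maximum of the scanner, all of them in the field channel. Of all 4042 clones, 204 had such readings in either channel. Among the highest clones the field channel was 108.7 times as bright as background for cld25_f09 and 70.8 times for cld27_g10, and no reading of these was at the maximum.

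**Figure D4:**
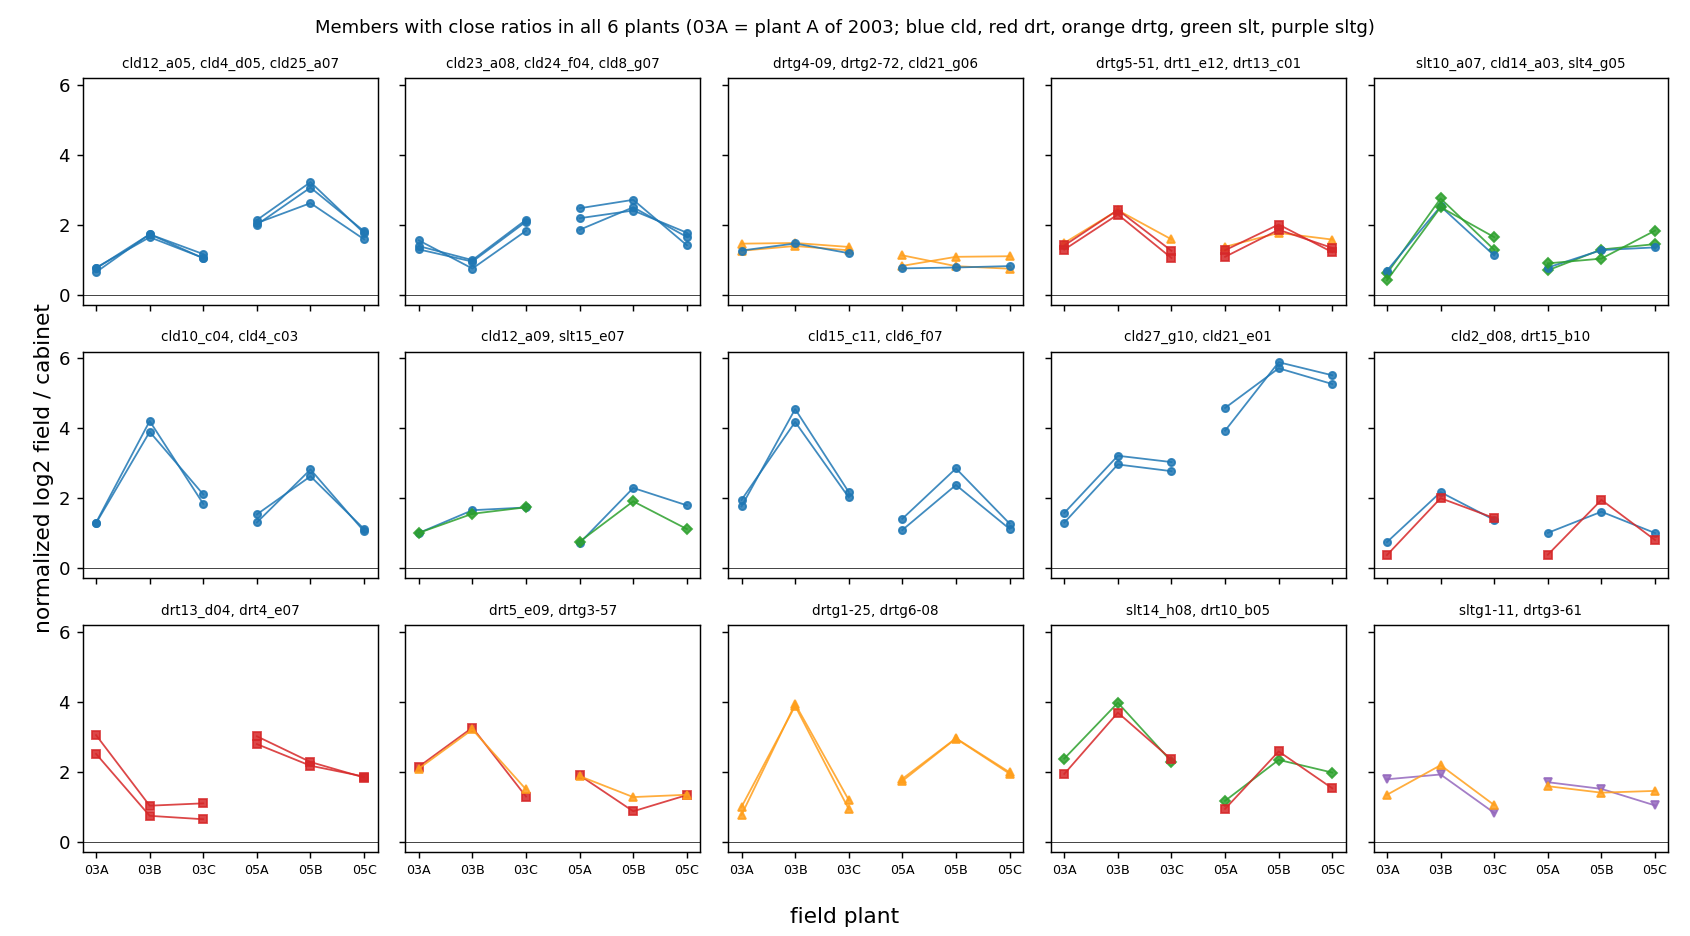
Normalized log2 ratio of field over cabinet in each of the 6 field plants for the 35 members that fall into 15 groups with close values in every plant. Each panel is a group, each line a clone within a year, and colour gives the prefix; the closest pair is drtg1-25 and drtg6-08.

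Several members were close to each other in all 6 plants. With closeness set, after the values had been seen, at a root mean square difference of at most 0.35 between every 2 members of a group, 35 members fell into 15 groups of 2 or 3 and 47 stood alone. The difference between 2 members was 1.14 in the median of all 3321 pairs. The closest pair, drtg1-25 and drtg6-08, differed by 0.146. Plant 2003 B was at 3.88 and 3.94 in these clones, while the other plants ranged from 0.76 to 2.96. In the pair cld27_g10 and cld21_e01 the difference was 0.347. The 3 clones cld12_a05, cld4_d05 and cld25_a07 were higher in each plant of 2005 than in the plant of 2003 with the same letter, with plant B the highest of each year. In drt13_d04 and drt4_e07 it was plant A that stood out, at 3.05 and 2.51 in 2003 and at 3.01 and 2.79 in 2005. Some groups joined prefixes, such as slt14_h08 with drt10_b05, and slt10_a07 and slt4_g05 with cld14_a03. Whether clones of a group come from the same gene was not analysed here.

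Of the 10 cDNAs on the array that carry a gene name of the ABA, dehydration or cold response (RD20, COR15, ZEP, CBF, CBF1, DREB1A and 2 spellings each of dehydrin and AAO3), 1 met the same limits on the ratio as the members. It was RD20, named here after its values were seen, which encodes a calcium-binding protein induced by dehydration and ABA. Its values were 2.74, 3.12 and 1.51 in 2003 and 1.29, 0.82 and 0.93 in 2005. The member nearest to it over the 6 plants was drt5_e09, at a root mean square difference of 0.399, with 2.14, 3.26 and 1.29 in 2003 and 1.89, 0.87 and 1.33 in 2005. No member came as near to RD20 as the members of a group did to each other. Over the 10 cDNAs the year means ranged from -0.10 to 2.46 in 2003 and from -0.08 to 2.89 in 2005, but 5 of the 10 (CBF, CBF1, DREB1A, the spelling DEHDRIN and the spelling AA03) were no brighter than the median unnamed spot in either channel, so a ratio near 0 does not show an unchanged transcript there. COR15, which gave the highest 2005 mean, was at 3.60 times its background in the cabinet channel, below the 3.76 of unnamed spots. None of the 10 passed the test between the years (limma, adjusted p under 0.05 and at least 1.5-fold). At an unadjusted p under 0.05, 2 of the 10 differed, where 27.2% of all cDNAs did, so this count does not stand out. They were RD20, with a lower, and COR15, a cold-regulated chloroplast protein gene, with a higher value in 2005. With the plant letter as a block COR15 was called higher in 2005 (difference 2.13, limma adjusted p = 0.049), where 3.18% of all cDNAs were.

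The difference between the years was not the contrast that chose the members, but it is built from the same year means. It was tested with limma on all 4279 cDNAs. A difference was called at 1.5-fold or more with a p under 0.05 after Benjamini-Hochberg adjustment. Of the 82 members, 1 was called higher in 2005, where 0.795% of all cDNAs were, and 0 lower, where 0.818% were. These counts are too small to set apart from the background. At an unadjusted p under 0.05, 9 members were higher and 8 lower, together 20.7% of the members beside 27.2% of all cDNAs. The rule left out clones that were high in only 1 year, so these shares are not independent of the choice. The called clone was cld25_f09, which was 2.42 ± 0.292 (SE, n = 3 plants a year) higher in 2005 on the log2 scale (limma adjusted p = 0.0367). Leaving out 2003 A or any plant of 2005 ended this call, with limma adjusted p-values of 0.0777 without 2003 A and of 0.0951, 0.151 and 0.144 without 2005 A, B and C. The difference itself stayed close in size, at 2.39 without 2003 A and at 2.67, 2.43 and 2.14 without 2005 A, B and C.

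**Figure D5:**
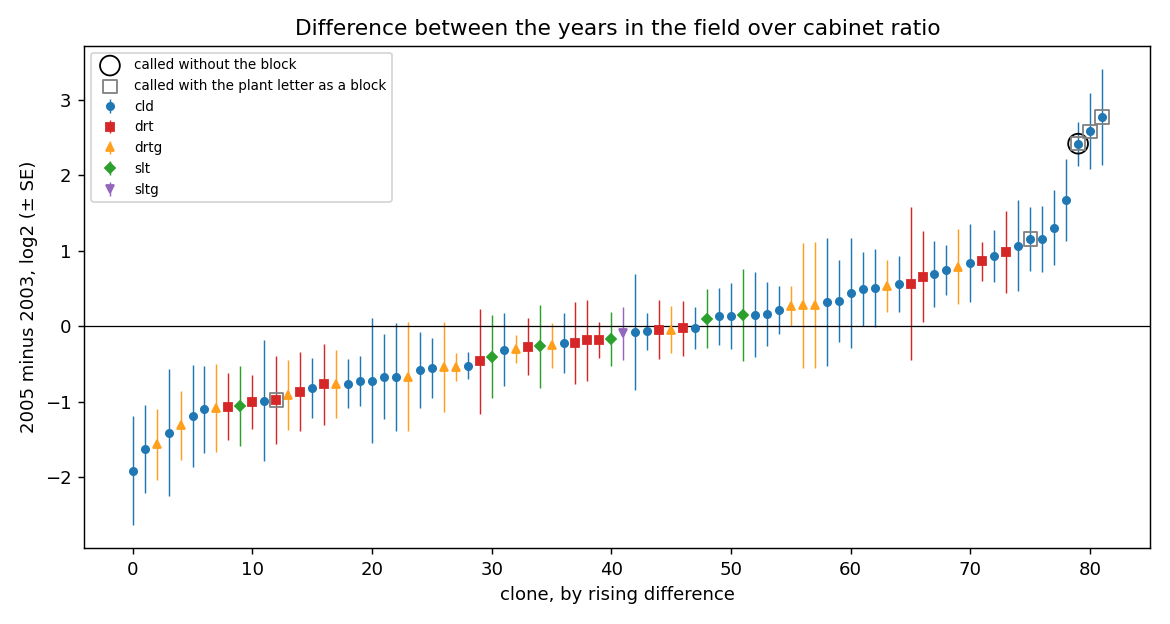
Difference between the 2005 and 2003 log2 ratios of field over cabinet for the 82 members, ordered by size, with the standard error of the limma fit as bars and the prefix as colour. A circle marks the call in cld25_f09 and squares mark the 5 calls with the plant letter as a block; the differences run from -1.92 to 2.77.

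Plants with the same letter deviated together in both years, and with the letter as a block 4 members were called higher in 2005 and 1 lower, where 3.18% and 4.58% of all cDNAs were. The higher ones were cld25_f09 (limma adjusted p = 0.0291), cld27_g10 (0.0198), cld21_e01 (0.0154) and cld4_d05 (0.0467), and the lower one was drt10_b05 (0.0468). Without the block, cld27_g10 had a difference of 2.58 ± 0.504 (SE, limma adjusted p = 0.0531), cld21_e01 of 2.77 ± 0.64 (SE, 0.065), cld4_d05 of 1.15 ± 0.423 (SE, 0.147) and drt10_b05 of -0.98 ± 0.579 (SE, 0.324). The arrays of the years were read on different days, so day and year cannot be told apart. A fit with the day as a random block took the 12 arrays singly, so that the 2 arrays of a plant counted as separate values. It called 3 members higher, where 4.0% of all cDNAs were, and 4 lower, where 5.84% were. The 3 higher ones were cld25_f09, cld27_g10 and cld21_e01. The 4 lower ones were cld6_a05, drt9_a04, drtg3-06 and drtg6-51.

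Most members therefore had year means that the test did not separate. The largest falls from 2003 to 2005 on the scale of the rule were those of cld6_a05 and cld23_b09. Clone cld6_a05 had values of 3.87, 4.33 and 1.48 in 2003 and of 1.66, 1.00 and 1.27 in 2005, a difference of -1.92 ± 0.722 (SE, limma adjusted p = 0.155). Clone cld23_b09 had values of 1.26, 4.41 and 2.50 in 2003 and of 0.96, 0.64 and 2.35 in 2005, a difference of -1.41 ± 0.835 (SE, limma adjusted p = 0.324). On the normalized scale, on which these differences are given, cld15_e08 (-1.63) and drtg6-51 (-1.57) had differences further below 0 than cld23_b09. None of these was called in the test on all 6 plants without a block. With the day as a random block, on single arrays, cld6_a05 and drtg6-51 were called lower (limma adjusted p = 0.0484 and 0.0493). Without plant 2003 C both were called lower as well (limma adjusted p = 0.0402 and 0.0410). In cld6_a05 and cld23_b09 the years overlapped. Plant C of 2003 lay below plant A of 2005 in cld6_a05, and plant A of 2003 below plant C of 2005 in cld23_b09. Over the members the median difference was -0.13, with 34 higher and 48 lower in 2005, beside a median of -0.02 over all cDNAs. This direction depended on 1 plant: without 2003 B the median was 0.12, with 48 higher and 34 lower. The plants of 2005 all lay above those of 2003 in 7 members (16.9% of all cDNAs did so) and all below them in 9 (18.0% of all cDNAs). The choice of the members bears on these counts as well.

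By prefix, 23 of the 43 cld members were higher in 2005, with a median difference of 0.14. Of the 16 drt members 4 were higher, of the 16 drtg members 5, of the 6 slt members 2 and of the single sltg member none. The median differences of drt, drtg and slt were -0.20, -0.42 and -0.22. In the test on all 6 plants without a block, on the normalized scale, cld25_f09 was the only single clone called. Other settings called further members in either direction, and the difference between prefixes was not tested.

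The exchange of the dyes gave another measure that the rule did not use, since the rule averaged the 2 arrays of a plant. The dye effect, taken per plant as the ratio with field RNA in Cy5 minus that with field RNA in Cy3, divided by 2, was tested against 0 over the 6 plants. It was called in 22 of the 82 members (26.8%), where 15.3% of all cDNAs tested were called (limma, adjusted p under 0.05). It was positive in 15 of these and negative in 7. The called effects were 0.148 to 0.522 in size on the log2 scale. No member had a dye effect larger than its smaller year mean, but none could have had one. The largest dye effect of any cDNA was 0.577, and the lowest year mean of a member was 0.72. Among the members the largest effect was that of drtg3-24, at -0.52 (limma adjusted p = 0.0255), beside year means of 3.50 and 2.83. With loess fitted in each spotting block, 0 members and 14 of all cDNAs were called for a dye effect. All 82 members stayed above 0 in all 6 plants there, but their choice by that condition on the same arrays made this likely beforehand.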

How the data were processed

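Transcripts were measured on 12 two-colour cDNA arrays, 2 with exchanged dyes for each of 6 field plants, always against cabinet RNA. The authors deposited scanner readings per spot: a linear intensity for either dye and that of the surrounding glass, with no correction. The authors also deposited processed values on a log10 scale, by a normalization that no source used here describes, and these served as an alternative. Set against the log10 ratio of field over cabinet of the same arrays they correlated at 0.936 to 0.992, which settles their direction, and their array medians lay between -0.0188 and 0.0126. The image program marks spots to be ignored, and those were left out.

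The members were chosen on uncorrected log2 ratios centred on the median of each array. The members and all lists were chosen with earlier results of these data known. Clones named in the text were, among the members, the 6 highest, the 4 with the largest difference between years (2 each way), the 2 with the smallest and 2 with the largest spread, those nearest the limit, those called between years and all of the 2 rarest prefixes. Others are named as chosen after their values were seen: cld25_f07, cld2_a12, drtg3-24, drtg6-51, drt9_a04, drtg3-06, drt10_b05, RD20 with drt5_e09, COR15, and the clones of the profile groups.

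For all other values, normexp background correction (offset 50) and loess within each array, with control and ignored spots at weight 0, were applied in limma 3.58.1 (R 4.3.3). Spots of a clone name, taken without its final grade letter, were averaged, and then both arrays of a plant, so that a plant is 1 replicate. Among the alternatives, the fits with the 12 arrays as independent replicates and with the day of reading as a block used single arrays instead. All 4279 cDNAs were fitted with a mean for each year and 1 spread, with 4 residual and 2.66 prior degrees of freedom. The procedure was tested on simulated data. There the test between the years called 2% of cDNAs changed 1.5-fold, 28% at 2-fold, 58% at 3-fold and 72% at 4-fold (50 cDNAs each). The changed cDNAs were drawn from all 4279, each with its own spread. In the median the members' plants were more widely spread, so these shares need not hold for the members. A difference that was not called is therefore not shown to be absent. P-values measure the spread between plants of a year at 1 site.

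Plant letters are shared between the years. As a check of pairing, each plant's deviations from its year mean were set against those of its namesake in the other year. They correlated at 0.576 (A), 0.242 (B) and 0.314 (C) across cDNAs, which by a limit of 0.1 set for this check counts as pairing. No source says that plants of different years with the same letter are related. The number of arrays limits the precision. Alternatives covered background correction, normalization, the deposited values, dim spots, the plant letter and the day of reading as blocks, and leaving out each plant.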

Additional observations from a re-analysis of the deposited data

Results flagged for a closer look

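The difference between the years of cld25_f09 stood out because the field over cabinet ratio of this clone differed between 2003 and 2005 by the test of the difference itself. It was 2.42 higher in 2005 on the log2 scale (SE 0.292, limma adjusted p = 0.0367), and each of the 3 plants of 2005 lay above each of the 3 plants of 2003. Over the alternatives the limma adjusted p ranged from 3.2e-05, with the 12 arrays taken as independent replicates, to 0.151, without plant 2005 B. With 3 plants in a year, single plants were not tested as outliers.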

How the results depend on the processing

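The number of members was 82. It was 109 with normexp and loess (78 of the 82 shared), 102 after local background subtraction (82 shared), 92 with the deposited values (73 shared), 85 with the median over spots (82 shared), 82 to 97 without 1 plant and 87 when grade letters were kept apart (an alternative chosen after seeing the data). Without 2003 B, 67 of the 82 were shared. In all 4 processings other than the main one, 73 of the members met the rule. Between years, against 1 member called higher in 2005 and 0 lower, the plant letter as a replicate block gave 4 and 1. The counts in brackets that follow are those over all cDNAs. Ratios without background correction gave 4 higher (136), scaled arrays 3 (127), deposited values 2 (80) and an unadjusted p under 0.01 gave 3 (194). No member was called lower in these settings (98, 163, 53 and 274). The 12 arrays as independent replicates gave 10 higher (579) and 9 lower (661). The day of reading as a random block, also on single arrays, gave 3 higher (171) and 4 lower (250). Without 1 plant, 0 to 1 were called higher (0 to 54) and 0 to 3 lower (0 to 106), the 3 without 2003 C. The dye effect, called in 22 members (653), was called in 0 (14) with loess by spotting block. Without 1 plant it was called in 6 to 17 (211 to 584). The lower of these counts were 6 (357) without 2005 B, 7 (211) without 2005 C, 10 (335) without 2003 A and 11 (331) without 2003 C. Among the 264 alternative year means of the clones named by rule, 251 moved by less than the SD between plants, 13 by more and 0 changed sign. Leaving out 1 of the 3 plants of a year cannot move its mean by as much as their SD. The alternatives of that kind therefore could not count as moved. These clones had also been picked with all 6 plants above 0, which made a change of sign unlikely beforehand. The cause of the changes between settings was not tested. Over all cDNAs the calls between years moved by more than 1.5 times as well, from 34 higher and 35 lower to 136 and 196 with the replicate block and to 0 and 0 without any 1 plant of 2005. Clones near background in the cabinet channel have the least certain ratios.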
